A study of Mus musculus with 12 samples.

Results

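The normal difference between the retina and the striatum was measured in wild-type (wt) mice, by RNA-seq of whole tissue. The comparison took every gene with at least 10 estimated counts summed over the 3 wt retina and the 3 wt striatum libraries, which kept 16864 of the 17579 genes listed and used 6 of the 12 libraries. All mice were untreated males on a C57Bl/6 background, aged 13 to 15 weeks, and the wt mice were littermates of R6/1 mice and did not carry their huntingtin transgene. Each library held RNA pooled from 3 to 4 mice, so the 3 libraries per tissue (n = 3) are pools and each SD is a spread between pools. The study says that both tissues were taken from the same animals, wt as well as R6/1, but does not say which retinal and striatal pools match, and the libraries were treated as unpaired. R6/1 libraries were left out except where named. Levels are CPM, counts normalised to the library total with TMM factors, and are given retina first, as mean ± SD. Differences are log2 of retina over striatum with a standard error (SE), positive where the retina was higher. Adjusted p-values are Benjamini-Hochberg values over all 16864 genes from the quasi-likelihood F-test of edgeR, and a gene was called at an adjusted p under 0.05.

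The retina and the striatum are both outgrowths of the embryonic forebrain. In the retina, rods and cones turn the capture of light by opsins into a change of membrane potential, through a G protein, a cyclic GMP phosphodiesterase and cyclic GMP-gated channels, and pass it on to bipolar, horizontal, amacrine and ganglion cells, with Müller glia spanning the tissue. The retina of the mouse is unmyelinated. In the striatum, the input station of the basal ganglia, most neurons are GABAergic medium spiny neurons that receive dopamine and glutamate and signal largely through cyclic AMP, among cholinergic and other interneurons, astrocytes and myelinated fibre bundles.

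Total counts were 14070445 to 18661772 in the retinal libraries and 17206379 to 20159277 in the striatal ones, with TMM factors of 0.961 to 1.02 and a common biological coefficient of variation of 9.41%. Across genes, Spearman correlations of log2 CPM were 0.994 to 0.996 between retinal libraries, 0.988 to 0.994 between striatal libraries and 0.627 to 0.652 between tissues. Wt striatum replicate 2 stood apart, with correlations of 0.988 to 0.989 with the other wt striata and 0.989 to 0.991 with R6/1 striata. Wt striatum replicates 1 and 3 had lower correlations with R6/1 striata, 0.972 to 0.983 for replicate 1 and 0.974 to 0.983 for replicate 3. Replicate 2 was therefore the only wt striatum that correlated with the R6/1 striata about as highly as with its own genotype. The cause was not tested. Replicate 2 was also the lowest of the wt striata in the summed level of several lists of striatal genes and the highest in myelin genes. In the order of replicates 1 to 3, medium spiny neuron genes summed to 13412, 9560.5 and 10917 CPM. Postsynaptic density genes summed to 8933, 6826 and 9094 CPM, genes of conventional vesicle release to 10378, 8089 and 10629 CPM, astrocyte genes to 7511, 6338 and 7292 CPM and myelin genes to 7955, 8323 and 7416 CPM. It was also lower in genes of cortical neurons and higher in Slc17a6, Calb2, Pou4f1 and Ttr, whose values stand with the groups below. Where a list's count was another without this library, that count follows in brackets or in the next sentence. Gnat1, Prph2, Grm6, Trpm1, Rlbp1 and Rbpms, which mark the retina, were each called higher in the libraries labelled retina. Drd1, Drd2, Adora2a, Penk, Tac1, Ppp1r1b and Pde10a, which mark the striatum, were each called higher in those labelled striatum.

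Of the 16864 genes, 6379 (37.8%) were called higher in the retina and 6494 (38.5%) higher in the striatum, 76.3% in either direction, and 3991 (23.7%) were not called. These shares are the background against which each group of genes below has to be read. Most called differences were moderate, with a median absolute log2 difference of 1.17 among called genes and 0.87 among all genes. The median signed difference of all genes was −0.0044. Called genes with an estimated difference of at least 2-fold numbered 3044 (18.1%) higher in the retina and 3738 (22.2%) higher in the striatum. At least 8-fold there were 607 (3.6%) and 879 (5.21%), and at least 64-fold 166 (0.984%) and 113 (0.67%). These counts rest on the estimate, with genes at 0 in a tissue at the bound described below, and not on a test against that fold. The striatum thus had more genes past 2-fold and 8-fold, and the retina more past 64-fold. Libraries of the 2 tissues did not overlap at all for 13334 genes (79.1%), 6622 (39.3%) with the retina above and 6712 (39.8%) with the striatum above.

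**Figure D1:**
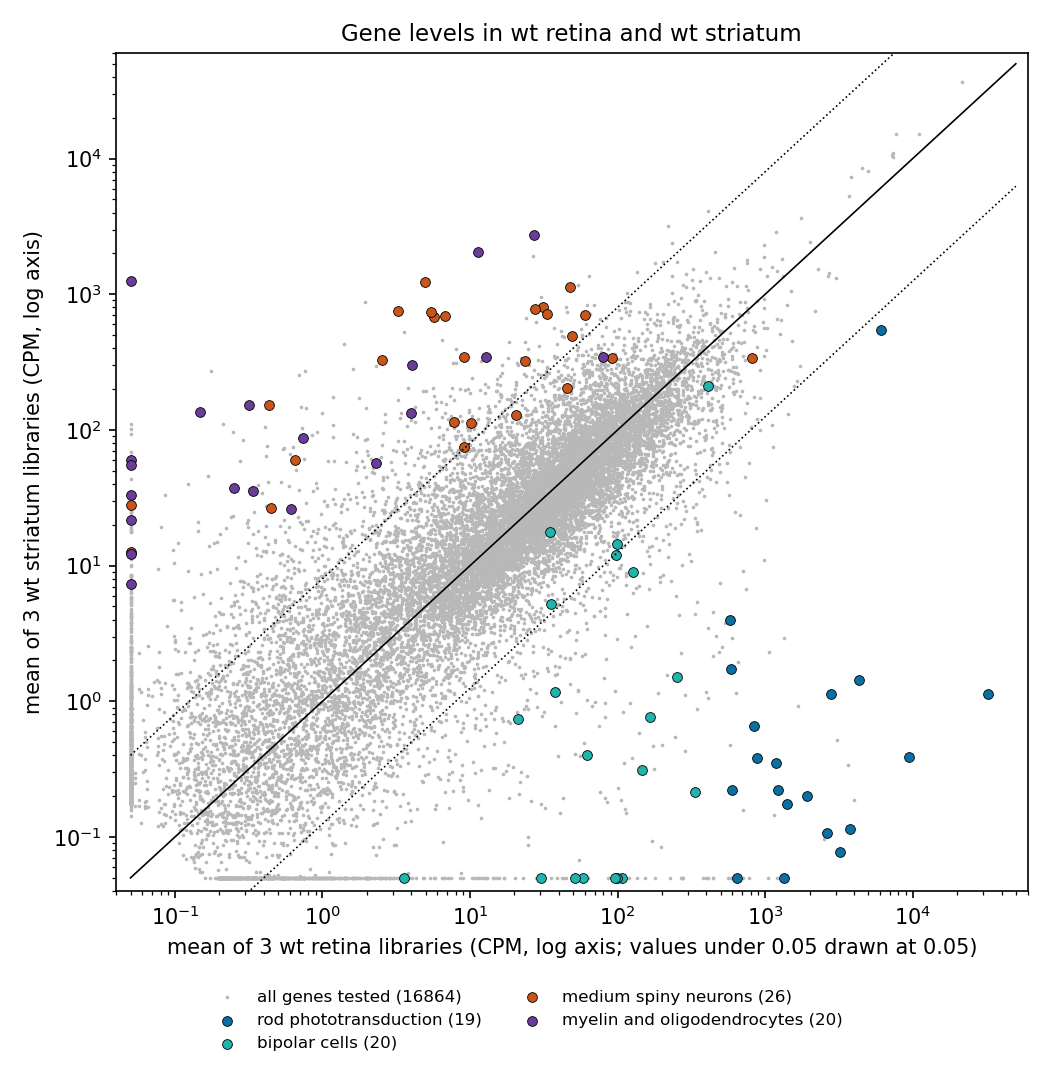
Mean level of each gene in the 3 wt striatum libraries (vertical axis, CPM, log scale) against its mean in the 3 wt retina libraries (horizontal axis, CPM, log scale), with the solid line at equal levels and the dotted lines at 8-fold. The 19 rod phototransduction genes lie below the lower dotted line, and the 20 myelin genes lie above the line of equal levels.

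Strongly biased genes held unequal parts of the 2 transcriptomes. Genes at least 8-fold higher in the retina took 15.7%, 15.8% and 16.5% of the counts in the retinal libraries and 0.313% to 0.339% in the striatal ones. Genes at least 8-fold higher in the striatum took 9.92%, 8.48% and 9.62% of the striatal counts and 0.577% to 0.581% of the retinal ones. Both sets were chosen by their difference in these same libraries, so the direction of each contrast is fixed by the choice. The shares describe only how much of each transcriptome such genes held. mt-Co1, a mitochondrially encoded subunit of cytochrome oxidase, was the gene with the most counts in every striatal library. The number of genes that together held 50% of the counts was 853, 834 and 803 in the retinas and 796, 875 and 857 in the striata, which overlap (two-sided exact permutation p = 0.7). With 3 libraries against 3 the smallest p of that test is 0.1.

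Of the 60 lists of genes read here, the genes of the rod light response had the largest median difference. All 19 measured members of the rod phototransduction list were called higher in the retina (19 of 19, against 37.8% of all genes), with a median log2 difference of 12.40 as fitted and 11.78 with genes at 0 set to their bound. In whole tissue, fewer cells of a type and less RNA per cell cannot be told apart. Gnat1, the alpha subunit of rod transducin, which couples the light-activated receptor to the phosphodiesterase, was at 8861, 8824 and 10697 CPM in the retinal libraries and 0.229, 0.292 and 0.647 CPM in the striatal ones (log2 difference 14.57, SE 0.35, adjusted p = 7.79e-13). It lies at chr9:107674474-107679712, minus strand, ENSMUSG00000034837 (GRCm38). Its level in the striata rests on few reads, and whether they came from striatal cells was not tested. Pde6b, a catalytic subunit of the rod phosphodiesterase, was at 2623, 2497 and 2803 CPM in the retinal libraries and 0.0572, 0.146 and 0.118 CPM in the striatal ones (log2 difference 14.47, SE 0.46, adjusted p = 2.43e-13). Sag, the rod arrestin that ends the light response, was at 4583, 3795 and 4521 CPM in the retinal libraries and 1.43, 1.27 and 1.59 CPM in the striatal ones (log2 difference 11.56, SE 0.17, adjusted p = 3.28e-13). For each of these genes, every retinal library was above every striatal one and the groups were far apart.

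The other subunits and regulators of the cascade followed the same pattern. Pde6a, the other catalytic subunit, was at 3764 ± 281 against 0.114 ± 0.105 CPM. The inhibitory subunit Pde6g was at 1223 ± 58.8 against 0.224 ± 0.113 CPM. Gngt1, the gamma subunit of rod transducin, was at 1413 ± 90.3 against 0.175 ± 0.176 CPM. Gnb1, its beta subunit, which other cells use as well, had the smallest difference of the list, 6115 ± 263 against 543 ± 30.7 CPM (log2 difference 3.49, SE 0.082, adjusted p = 2.57e-11). Proteins that reset the cascade were higher too. The opsin kinase Grk1 was at 2782 ± 22.7 against 1.14 ± 0.210 CPM, and the kinase inhibitor recoverin (Rcvrn) was at 592 ± 74.7 against 0.220 ± 0.0650 CPM. Phosducin (Pdc), which binds transducin beta and gamma, was at 3208 ± 324 against 0.0779 ± 0.0900 CPM. Of the retinal guanylyl cyclases, which restore cyclic GMP, Gucy2e was at 582 ± 12.7 against 3.99 ± 0.648 CPM and Gucy2f at 585 ± 2.83 against 1.73 ± 0.914 CPM. Slc24a1, the sodium, calcium and potassium exchanger of rods, was at 1916 ± 137 against 0.201 ± 0.0322 CPM. Cnga1, the rod cyclic GMP-gated channel, and Guca1a, an activator of the retinal cyclases, were listed at 0 in the 3 striata and at 1338 ± 51.4 and 643 ± 25.7 CPM in the retinas. Within a tissue, a gene of the table had either 0 counts in all 6 libraries of both genotypes or at least 11 over them, so a gene at 0 was set to 10 counts over its 3 wt libraries to bound the fold. On that basis Cnga1 was at least 7348-fold and Guca1a at least 3521-fold higher in the retina.

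Promoters of the rod genes were searched for TAATCC, the core that the photoreceptor homeodomain proteins Crx and Otx2 bind, in the 250 bases before the RefSeq start of each gene (GRCm38.p6), on both strands, so that the reverse complement GGATTA also counted. RefSeq windows were matched for 12 of the 19 rod genes, and 7 of them (58.3%) held the core, which stood in 671 of the 12386 windows of all tested genes (5.42%), in 13.4% of the 411 windows of genes at least 8-fold higher in the retina and in 4.38% of the 640 windows of genes at least 8-fold higher in the striatum. Among outer segment genes 2 of 14 windows held it, and among cone genes 1 of 7. The core TGCTGA of NRL sites (reverse complement TCAGCA) stood in 2 of the 12 rod windows (16.7%) and in 13.3% of all. A match of letters is a description and shows no binding. The 4 rod windows printed here were taken by the number of cores and then by retinal level, to show the core in place. They are Cngb1 (chr8:95306586-95306835, minus strand), Gucy2f (chrX:142196937-142197186, minus strand), Sag (chr1:87803430-87803679, plus strand) and Gngt1 (chr6:3993758-3994007, plus strand), each read 5′ to 3′ along the gene and ending just before its start, with every TAATCC or GGATTA in capitals.
Cngb1: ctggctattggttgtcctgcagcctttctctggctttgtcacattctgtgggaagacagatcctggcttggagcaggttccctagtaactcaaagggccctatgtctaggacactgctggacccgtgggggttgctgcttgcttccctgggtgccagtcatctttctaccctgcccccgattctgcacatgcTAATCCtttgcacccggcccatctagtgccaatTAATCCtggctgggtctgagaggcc
Gucy2f: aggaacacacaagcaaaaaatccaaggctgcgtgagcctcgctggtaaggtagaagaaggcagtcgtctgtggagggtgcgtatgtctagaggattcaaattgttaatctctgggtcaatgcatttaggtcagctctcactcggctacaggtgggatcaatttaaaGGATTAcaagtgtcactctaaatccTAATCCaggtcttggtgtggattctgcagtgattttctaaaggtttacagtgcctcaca
Sag: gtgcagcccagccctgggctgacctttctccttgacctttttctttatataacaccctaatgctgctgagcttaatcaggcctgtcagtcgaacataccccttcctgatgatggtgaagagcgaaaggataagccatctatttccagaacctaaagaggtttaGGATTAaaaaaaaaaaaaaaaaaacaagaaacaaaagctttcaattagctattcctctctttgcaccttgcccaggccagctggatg
Gngt1: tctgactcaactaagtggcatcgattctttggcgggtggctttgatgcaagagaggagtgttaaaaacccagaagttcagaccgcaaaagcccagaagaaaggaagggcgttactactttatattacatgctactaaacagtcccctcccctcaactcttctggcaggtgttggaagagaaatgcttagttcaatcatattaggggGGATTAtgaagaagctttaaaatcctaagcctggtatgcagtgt
In Cngb1, the beta subunit of the rod channel, both cores read forward and begin 58 and 25 bases before the start. In Gucy2f a reversed core begins 84 bases and a forward core 59 bases before it. Sag and Gngt1 hold a reversed core each, 87 and 44 bases before the start. Levels of these genes in the retina were 846 ± 27.7 CPM for Cngb1, 585 ± 2.83 for Gucy2f, 4299.7 ± 438 for Sag and 1413 ± 90.3 for Gngt1.

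The 18 measured genes of the photoreceptor outer segment, the stack of membrane discs that holds the visual pigment, were all called higher in the retina (18 of 18, median log2 difference 8.84). Prph2, which shapes the rims of the discs, was at 3954, 4091 and 3965 CPM in the retinal libraries and 0.172, 0.0975 and 0.294 CPM in the striatal ones (log2 difference 14.37, SE 0.38, adjusted p = 2.43e-13). Rp1, a protein of the ciliary axoneme, was at 3638 ± 51.0 against 0.337 ± 0.158 CPM. Abca4, the flippase that clears retinoids from the discs, was at 1337 ± 129.7 against 2.93 ± 0.735 CPM. Tulp1, needed for transport to the outer segment, was listed at 0 in the striata and at 1053 ± 53.2 CPM in the retinas, at least 5797-fold higher. Of 8 genes of the visual cycle in photoreceptors and Müller glia, 7 were called higher in the retina. Among them Rbp3, the carrier of retinoids between cells, was at 2515 ± 315 against 0.0970 ± 0.0895 CPM. Rdh12, a retinol dehydrogenase of photoreceptors, was at 444 ± 19.6 against 2.17 ± 0.912 CPM.

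Cones are a small minority of mouse photoreceptors, and their genes followed the rods. Of 11 cone genes, 10 were called higher in the retina, with a median log2 difference of 10.96 as fitted and 9.03 with genes at 0 set to their bound. Opn1sw, the short wavelength opsin, was at 374, 359 and 397 CPM in the retinal libraries, and Opn1mw, the middle wavelength opsin, at 101, 92.9 and 91.6 CPM. Both were listed at 0 in the striata, as was cone transducin Gnat2 (178 ± 3.04 CPM in the retinas). Bounds on the fold were 2081, 522 and 979. Cone arrestin (Arr3) was at 176 ± 41.2 against 0.316 ± 0.108 CPM. The single exception was Slc24a2, the sodium, calcium and potassium exchanger of cones, which was higher in the striatum at 126, 109 and 131 CPM in the retinal libraries and 804, 567 and 895 CPM in the striatal ones (log2 difference −2.63, SE 0.16, adjusted p = 2.41e-06), so that all 3 striata were above all 3 retinas.

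Inner retinal neurons were followed through 20 bipolar, 11 amacrine, 6 horizontal and 15 ganglion cell genes. All 20 bipolar genes were called higher in the retina (median log2 difference 7.49 as fitted and 7.25 with genes at 0 set to their bound). Grm6, the glutamate receptor through which ON bipolar cells sense the release of transmitter by photoreceptors, was at 111, 104 and 109 CPM in the retinas and listed at 0 in the striata, at least 595-fold higher. Trpm1, the cation channel that Grm6 controls, was at 356, 296 and 347 CPM in the retinal libraries and 0.172, 0 and 0.471 CPM in the striatal ones (log2 difference 10.65, SE 0.68, adjusted p = 5.46e-09). Scgn, a calcium-binding protein of some bipolar cells, was at 62.2 ± 3.05 against 0.404 ± 0.206 CPM, and Rgs11, which speeds the end of the Grm6 signal, at only 34.8 ± 1.34 against 17.8 ± 2.13 CPM (log2 difference 0.97). Amacrine genes were higher in the retina in 10 of 11 (9 without wt striatum replicate 2). Examples were Tfap2b, a transcription factor of amacrine cells, at 174 ± 8.17 against 0.466 ± 0.103 CPM. Gjd2, the gap junction protein connexin 36, was at 75.7 ± 1.42 against 4.60 ± 0.371 CPM. Th, tyrosine hydroxylase, which dopaminergic amacrine cells use, was higher in the striatum at 1.23 ± 0.179 against 3.06 ± 0.399 CPM.

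Horizontal and ganglion cell genes went both ways. Of the 6 horizontal genes, 3 were higher in the retina and 3 in the striatum. Lhx1 and Onecut1, transcription factors of these cells, were at 6.08 ± 0.879 against 0.279 ± 0.435 CPM for Lhx1 and 7.52 ± 0.638 against 0.301 ± 0.373 CPM for Onecut1, while calbindin (Calb1) and Onecut2 were higher in the striatum at 84.4 ± 2.03 against 218 ± 25.3 CPM for Calb1 and 15.3 ± 1.61 against 44.7 ± 12.1 CPM for Onecut2. Of the 15 ganglion cell genes, 11 were higher in the retina, 3 in the striatum and 1 was not called. Rbpms, an RNA-binding protein that marks ganglion cells, was at 18.0, 20.8 and 18.7 CPM in the retinal libraries and 1.89, 2.19 and 2.24 CPM in the striatal ones (log2 difference 3.18, SE 0.14, adjusted p = 1.41e-09). The transcription factor Pou4f1 was at 15.9, 17.1 and 17.2 CPM in the retinas and 0, 2.10 and 0.0588 CPM in the striata, where replicate 2 was highest, and Sncg, gamma-synuclein, at 47.6 ± 5.73 against 2.04 ± 1.03 CPM. Thy1, Nefm and Stmn2, which projection neurons in general express, were higher in the striatum at 99.7 ± 4.23 against 334 ± 19.0 CPM for Thy1, 102 ± 7.12 against 235 ± 41.8 CPM for Nefm and 56.8 ± 5.39 against 186 ± 2.33 CPM for Stmn2. Slc17a6, the vesicular glutamate transporter of ganglion cells, was not called: its levels were 82.3, 75.2 and 82.6 CPM in the retinas and 15.8, 53.0 and 21.7 CPM in the striata (log2 difference 1.39, SE 0.49, adjusted p = 0.0534), with wt striatum replicate 2 at over 2 times the others. Without that library it was called, at a log2 difference of 2.09 (adjusted p = 7.04e-10).

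Transcription factors marked the identity of both tissues. Of 22 retinal factors, 20 were called higher in the retina and 1 in the striatum (2 without wt striatum replicate 2), with a median log2 difference of 7.65 as fitted and 6.65 with genes at 0 set to their bound. Crx, the homeodomain factor of photoreceptors whose core motif is shown in the rod promoters, was at 1151, 1155 and 1288 CPM in the retinas and listed at 0 in the striata, at least 6626-fold higher. Nrl, which commits photoreceptors to the rod fate, was at 1146, 1233 and 1058 CPM in the retinal libraries and 0.114, 0.146 and 0.176 CPM in the striatal ones (log2 difference 12.87, SE 0.40, adjusted p = 2.43e-13). Nr2e3, which represses cone genes in rods, was listed at 0 in the striata and at 562 ± 84.2 CPM in the retinas. Pax6, the factor of eye formation, was at 315 ± 7.29 against 10.8 ± 2.26 CPM. Rorb, a nuclear receptor, was at 421 ± 14.4 against 43.5 ± 12.5 CPM. The gene called higher in the striatum was Sall3, at 4.22, 4.05 and 3.92 CPM in the retinas and 5.38, 5.31 and 6.35 CPM in the striata (adjusted p = 0.0156), a call lost in DESeq2 (adjusted p = 0.0562) and without wt retina replicate 3 (0.0511) or wt striatum replicate 3 (0.0623). Of 19 factors of the ventral forebrain and striatum, 17 were called higher in the striatum (against 38.5% of all genes) and 1 in the retina (median log2 difference −4.56 as fitted and −3.93 with genes at 0 set to their bound). Bcl11b (Ctip2), required for medium spiny neurons, was at 2.43, 2.03 and 2.42 CPM in the retinal libraries and 351, 255 and 279.6 CPM in the striatal ones (log2 difference −7.00, SE 0.19, adjusted p = 7.94e-11). Foxp1 was at 22.3 ± 0.591 against 340.3 ± 34.3 CPM. Foxp2 was at 3.54 ± 0.252 against 83.1 ± 7.01 CPM. Ebf1 was the member higher in the retina, at 35.6 ± 3.02 against 20.6 ± 3.51 CPM.

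Medium spiny neuron genes were the striatal counterpart of the rod genes. Of 26 measured members, 25 were called higher in the striatum and 1 in the retina, with a median log2 difference of −4.74. The summed level of the list was 1260.5 to 1348 CPM in the retinas and 9560.5 to 13412 CPM in the striata. Penk, the precursor of enkephalins in neurons of the indirect pathway, was at 6.72, 6.78 and 3.60 CPM in the retinal libraries and 803, 609 and 631 CPM in the striatal ones (log2 difference −6.92, SE 0.23, adjusted p = 7.03e-08). The gene lies at chr4:4133531-4138819, minus strand, ENSMUSG00000045573. Ppp1r1b (DARPP-32), the dopamine-regulated inhibitor of protein phosphatase 1, was at 5.57, 7.97 and 6.82 CPM in the retinal libraries and 837, 585 and 659.8 CPM in the striatal ones (log2 difference −6.68, SE 0.18, adjusted p = 1.99e-09). Adora2a, the adenosine A2a receptor of the indirect pathway, was at 0.192, 0.350 and 0.752 CPM in the retinal libraries and 188, 119.9 and 147 CPM in the striatal ones (log2 difference −8.36, SE 0.61, adjusted p = 3.23e-07). Wt striatum replicate 2 was the lowest striatal library for all 3 genes and still far above every retina. Arpp21, a phosphoprotein regulated by cyclic AMP, was at 4.94 ± 0.468 against 1221 ± 243 CPM. Scn4b, a sodium channel beta subunit, was at 5.47 ± 0.599 against 740.5 ± 197 CPM.

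Dopamine receptors were not confined to the striatum. Drd1, of the direct pathway, was at 47.9, 42.6 and 46.3 CPM in the retinal libraries and 254, 156 and 200.5 CPM in the striatal ones (log2 difference −2.16, SE 0.17, adjusted p = 1.36e-05). Drd2, of the indirect pathway, was at 20.5, 19.3 and 21.6 CPM in the retinal libraries and 152, 117 and 120.4 CPM in the striatal ones (log2 difference −2.66, SE 0.11, adjusted p = 2.32e-09). The fold was 4.46 for Drd1 and 6.32 for Drd2, beside 329.6 for Adora2a. Drd4, the receptor through which dopamine acts on photoreceptors, went the other way, with 53.0, 67.4 and 50.8 CPM in the retinas and 0 listed in the 3 striata (at least 310.2-fold). Rgs9 was the medium spiny neuron gene called higher in the retina, at 826, 776 and 826 CPM in the retinal libraries and 379, 304 and 339 CPM in the striatal ones (log2 difference 1.25, SE 0.087, adjusted p = 1.20e-07). The gene encodes a long form in the striatum and a short form in photoreceptors, where it ends the transducin signal, and counts per gene do not separate them.

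**Figure D2:**
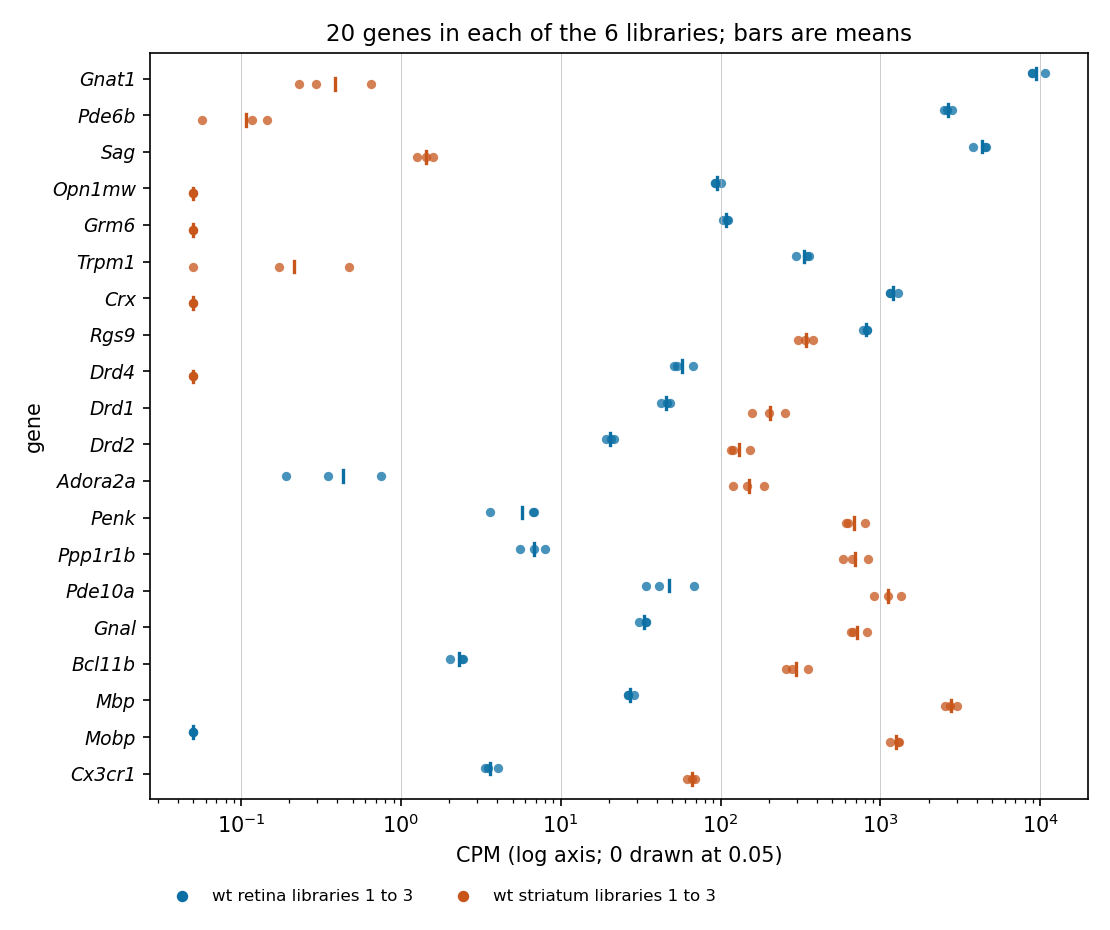
Level of 20 genes (vertical axis) in each of the 6 libraries (horizontal axis, CPM, log scale, 0 drawn at 0.05), with a point per library and a bar at the mean of the 3 libraries of a tissue. Retinal and striatal points do not overlap for any gene shown, with Rgs9 and the dopamine receptors Drd1 and Drd2 nearest to each other.

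Striatal interneuron genes were less one-sided, with 9 of 13 higher in the striatum, 2 in the retina (1 without wt striatum replicate 2) and 2 not called. Sst, somatostatin, was at 1.67 ± 0.434 against 68.9 ± 15.5 CPM and Npy, neuropeptide Y, at 3.73 ± 0.384 against 21.8 ± 7.01 CPM. Nos1, neuronal nitric oxide synthase, was at 7.85 ± 0.397 against 64.2 ± 6.66 CPM. Chat, choline acetyltransferase, which starburst amacrine cells of the retina share with the cholinergic interneurons, differed little, with 8.06, 6.15 and 7.25 CPM in the retinal libraries and 9.61, 8.09 and 9.65 CPM in the striatal ones (log2 difference −0.34, SE 0.14, adjusted p = 0.0457). The call was lost in DESeq2 (adjusted p = 0.102), with library totals as the only scaling (0.0666) and without any one of 4 libraries (0.0899 to 0.159 without wt retina replicate 2 or 3 or wt striatum replicate 1 or 3). Pvalb, parvalbumin, was not called, at 10.4 ± 0.766 against 15.8 ± 7.59 CPM. Calb2, calretinin, was higher in the retina, at 178, 178 and 192 CPM in the retinal libraries and 6.35, 33.5 and 8.06 CPM in the striatal ones (log2 difference 3.48, SE 0.67, adjusted p = 0.00862). Its striatal levels were spread widely, with replicate 2 the highest. The log2 difference was 4.66 without that library.

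Genes of cells that a dissection could carry along moved with tissue and library. Of 10 genes of cortical excitatory neurons, 7 were called higher in the striatum (8 without wt striatum replicate 2), and their summed level was 109 to 115 CPM in the retinas and 164 to 397 CPM in the striata. Tbr1, a factor of deep cortical layers, was at 60.9, 24.9 and 72.6 CPM in the striata and 1.599, 2.59 and 2.42 CPM in the retinas. Replicate 2 was the lowest striatal library. Slc17a7, the vesicular glutamate transporter of cortical neurons and also of photoreceptors and bipolar cells, was at 963, 987 and 979 CPM in the retinal libraries and 435, 160.2 and 459.8 CPM in the striatal ones (log2 difference 1.47, SE 0.42, adjusted p = 0.0276). It was called, but the adjusted p was 0.0536 to 0.0651 without any one retina and 0.0589 without wt striatum replicate 1. Without wt striatum replicate 2 the log2 difference was 1.13 (adjusted p = 1.19e-09). Genes of the retinal pigment epithelium and choroid were higher in the retina in 11 of 12, with a summed level of 111 to 139.7 CPM in the retinas and 10 to 19.3 CPM in the striata. Rpe65, its retinoid isomerase, was at 16.2 ± 1.79 against 5.06 ± 0.178 CPM, and Tyrp1 and Dct, enzymes of pigment synthesis, were at 3.82 ± 0.941 against 0.0544 ± 0.0574 CPM for Tyrp1 and 9.49 ± 0.696 against 0.513 ± 0.102 CPM for Dct. Lens genes summed to 6.55 to 47.3 CPM in the retinas and 6.58 to 7.94 CPM in the striata, with wt retina replicate 2 highest: Cryaa, alpha-A crystallin, was at 3.45, 24.3 and 3.17 CPM in the retinas, listed at 0 in the striata and not called (adjusted p = 0.0911). Red blood cell genes were higher in the striatum in 5 of 5, with sums of 38.9 to 55.6 CPM in the retinas and 119 to 157 CPM in the striata. The part of these cells in the other differences was not tested.

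Of the lists of non-neuronal cells, myelin had the largest median difference. All 20 measured genes of myelin and oligodendrocytes were called higher in the striatum (20 of 20, median log2 difference −7.35 as fitted and −6.69 with genes at 0 set to their bound), with a summed level of 133 to 153 CPM in the retinas and 7416 to 8323 CPM in the striata. Mbp, myelin basic protein, was at 28.7, 26.2 and 26.5 CPM in the retinal libraries and 2708, 3016 and 2547 CPM in the striatal ones (log2 difference −6.67, SE 0.091, adjusted p = 1.14e-12). Mobp, another protein of compact myelin, was listed at 0 in the 3 retinas and at 1316, 1292 and 1149.5 CPM in the striata, at least 6098-fold higher, and Mog was likewise at 0 against 60.5 ± 8.14 CPM. Sox10, the factor of the oligodendrocyte lineage, was at 0.336 ± 0.177 against 35.3 ± 3.77 CPM. Precursor genes were higher in the striatum in 8 of 9 (7 without wt striatum replicate 2), with Pdgfra, their growth factor receptor, at 10.996 ± 1.17 against 66.1 ± 4.54 CPM. Lhfpl3 was the precursor gene higher in the retina, at 95.2 ± 3.05 against 47.2 ± 5.68 CPM.

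Astrocyte genes were called higher in the striatum in 17 of 19 (16 without wt striatum replicate 2), with a median log2 difference of −4.09. Slc1a2, the main glial glutamate transporter of the forebrain, was at 421, 403 and 406 CPM in the retinal libraries and 4582, 3427 and 4342 CPM in the striatal ones (log2 difference −3.33, SE 0.11, adjusted p = 2.70e-10). Gja1, connexin 43, was at 5.64 ± 1.05 against 204 ± 7.15 CPM and Aldh1l1, a folate enzyme, at 8.11 ± 0.878 against 44.9 ± 3.53 CPM. Gfap was at 10.8 ± 1.54 against 64.8 ± 13.9 CPM. Aqp4, the water channel of astrocytes and Müller glia, was the member higher in the retina, at 225 ± 14.2 against 161 ± 14.5 CPM. The 14 Müller glia genes, many of which astrocytes share, split into 9 higher in the retina and 5 in the striatum, with a median of 0.64. Rlbp1, the retinaldehyde carrier of Müller glia and pigment epithelium, was at 272 ± 16.1 against 10.2 ± 1.94 CPM. Dkk3 was at 509 ± 16.6 against 112 ± 20.8 CPM. Glul, glutamine synthetase, common to both cell types, was at 2271 ± 231 against 1524 ± 161 CPM. Slc1a3, Kcnj10, Apoe and Sox9 were higher in the striatum, between 2.66-fold and 3.21-fold.

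All 24 microglial genes were called higher in the striatum (24 of 24, median −3.64). Their sum was 78.6 to 80.0 CPM in the retinas and 701 to 767 CPM in the striata, with little spread within either tissue. Cx3cr1, the fractalkine receptor, was at 4.03, 3.36 and 3.49 CPM in the retinal libraries and 69.1, 62.0 and 66.6 CPM in the striatal ones (log2 difference −4.18, SE 0.11, adjusted p = 1.58e-11). P2ry12, the purinergic receptor of resting microglia, was at 4.29, 4.47 and 4.46 CPM in the retinal libraries and 68.4, 61.8 and 55.5 CPM in the striatal ones (log2 difference −3.81, SE 0.12, adjusted p = 5.99e-11). Csf1r, the growth factor receptor on which these cells depend, was at 6.53 ± 0.467 against 91.7 ± 3.35 CPM. C1qa, the first chain of complement C1q, was at 2.64 ± 0.431 against 28.3 ± 1.29 CPM. Complement and MHC class I genes as a whole were divided, with 3 of 19 (15.8%) higher in the retina and 7 (36.8%) in the striatum. Over all genes the shares were 37.8% and 38.5%. H2-D1 was not called at 22.7 ± 1.26 against 20.5 ± 4.43 CPM. Cd59a, an inhibitor of the membrane attack complex, was higher in the retina at 55.8 ± 1.66 against 8.02 ± 1.66 CPM. Of 5 perivascular macrophage genes, 4 were higher in the striatum, while Lyve1 was higher in the retina at 13.5 ± 0.791 against 0.221 ± 0.156 CPM.

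Vascular genes were mostly higher in the striatum, with smaller medians. Of 16 endothelial genes, 13 were higher in the striatum and 2 in the retina (median −1.65), and of 10 genes of pericytes and smooth muscle, 9 were higher in the striatum and 1 in the retina (median −1.27). Cldn5, a tight junction protein, was at 5.85 ± 1.12 against 21.6 ± 1.20 CPM. Abcb1a, the efflux pump of the blood barrier, was at 16.3 ± 1.43 against 51.6 ± 1.82 CPM. Kdr, the VEGF receptor, and Slc2a1, the glucose transporter that retinal neurons and pigment epithelium also use, were the endothelial genes higher in the retina, at 175 ± 22.7 against 20.02 ± 1.83 CPM for Kdr and 105 ± 8.58 against 59.0 ± 4.35 CPM for Slc2a1. Vtn, vitronectin, was the gene of the pericyte list higher in the retina, at 552 ± 31.8 against 41.3 ± 4.08 CPM. Which retinal cells its counts came from was not tested. Choroid plexus and ependymal genes split, with 5 of 13 higher in the retina and 4 in the striatum (5 without wt striatum replicate 2). Ttr, transthyretin, which the choroid plexus and the pigment epithelium both secrete, was at 29.6, 37.2 and 24.3 CPM in the retinas and 2.86, 9.75 and 2.06 CPM in the striata (log2 difference 2.58, SE 0.59, adjusted p = 0.0110), with a log2 difference of 3.61 without wt striatum replicate 2.

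**Figure D3:**
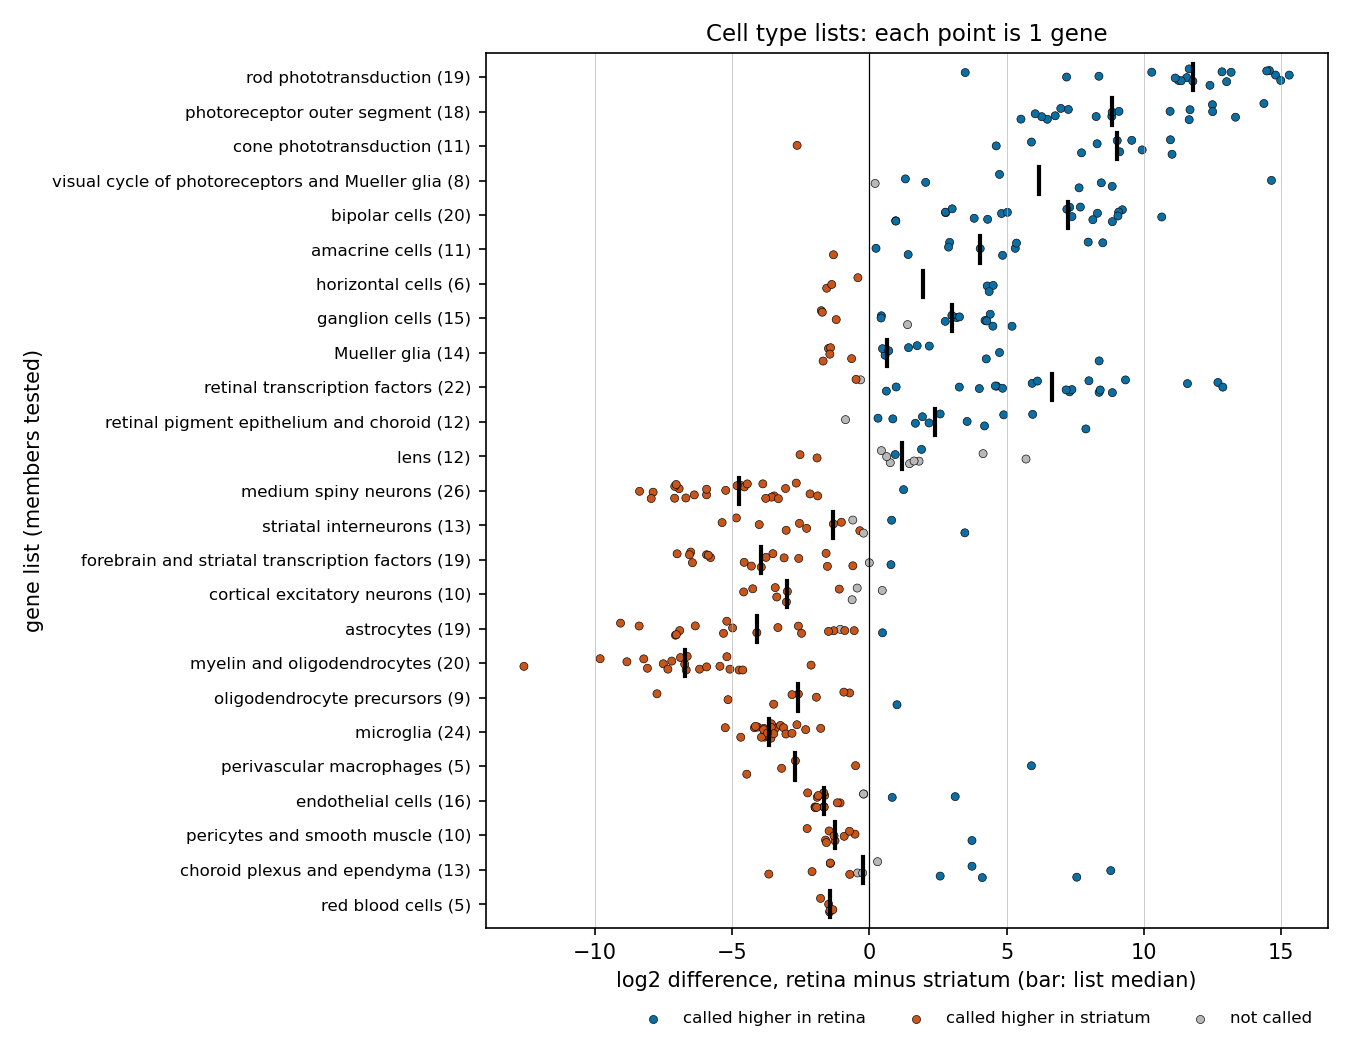
Log2 difference between retina and striatum (horizontal axis, positive where the retina was higher) of every measured gene of 25 cell type lists (vertical axis, number of genes in brackets), with a point per gene coloured by its call and a bar at the list median, genes listed at 0 in one tissue drawn at their bound. Rod, outer segment and bipolar genes are called higher in the retina throughout, and myelin and microglial genes higher in the striatum throughout.

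Both tissues signal through G proteins and cyclic nucleotides, and the subunits in use differed along the cascade. Among 15 G protein alpha subunits, 4 were higher in the retina and 9 in the striatum. Gnal, which couples dopamine and adenosine receptors to adenylyl cyclase in the striatum, was at 34.0, 34.3 and 30.8 CPM in the retinal libraries and 821, 652 and 675 CPM in the striatal ones (log2 difference −4.44, SE 0.099, adjusted p = 1.83e-11), in contrast to the transducins Gnat1 and Gnat2. Among 17 beta and gamma subunits, 6 were higher in the retina and 10 in the striatum (8 without wt striatum replicate 2). Gng7, the partner of Gnal, was at 26.9, 29.5 and 26.6 CPM in the retinal libraries and 921, 732 and 678 CPM in the striatal ones (log2 difference −4.81, SE 0.11, adjusted p = 7.98e-11). Gnb3, the beta subunit of cones and ON bipolar cells, was at 196 ± 10.5 against 0.0841 ± 0.1002 CPM. Gng13, of ON bipolar cells, was at 35.6 ± 4.99 against 5.18 ± 0.475 CPM.

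Of 16 cyclases, 3 were higher in the retina and 9 in the striatum (8 without wt striatum replicate 2). Adcy5, the adenylyl cyclase of medium spiny neurons, was at 31.9, 32.2 and 30.3 CPM in the retinal libraries and 936, 657 and 812 CPM in the striatal ones (log2 difference −4.67, SE 0.12, adjusted p = 2.36e-10). Adcy6, its closest relative, was higher in the retina at 149.9 ± 9.94 against 24.7 ± 3.16 CPM, and Adcy1, a cyclase stimulated by calmodulin, was not called at 471 ± 53.3 against 429 ± 142 CPM. Of 24 phosphodiesterase genes, 10 were higher in the retina (9 without wt striatum replicate 2) and 10 in the striatum, shares near those of all genes. Pde10a, which degrades both cyclic nucleotides in medium spiny neurons, was at 34.2, 41.2 and 67.7 CPM in the retinal libraries and 1346, 911 and 1112 CPM in the striatal ones (log2 difference −4.55, SE 0.29, adjusted p = 4.98e-05). Pde1b, activated by calmodulin, was at 59.8 ± 1.95 against 704 ± 114 CPM. Their retinal counterparts were the phosphodiesterase 6 subunits described above, including Pde6h of cones at 111 ± 5.87 against 0.349 ± 0.0542 CPM. Of 16 RGS proteins, which speed the hydrolysis of GTP, 5 were higher in the retina (4 without wt striatum replicate 2) and 10 in the striatum. Besides Rgs9 and Rgs11, Rgs16 was higher in the retina at 31.2 ± 1.11 against 4.30 ± 1.20 CPM, and Rgs17 and Rgs10 were higher in the striatum at 24.4 ± 2.62 against 141 ± 9.06 CPM for Rgs17 and 2.30 ± 0.253 against 20.1 ± 0.815 CPM for Rgs10.

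Receptors for modulators were mostly higher in the striatum, 28 of 31 (27 without wt striatum replicate 2) against 2 in the retina, with a median of −2.42. Cnr1, the cannabinoid receptor, was at 23.7 ± 2.26 against 324 ± 75.6 CPM. The muscarinic receptor Chrm1 was at 4.25 ± 1.11 against 114 ± 24.8 CPM and Chrm4 at 0.445 ± 0.158 against 26.8 ± 5.45 CPM. The serotonin receptor Htr2c was at 5.44 ± 0.503 against 104 ± 13.2 CPM. Drd4 and Htr2b were the receptors higher in the retina, the latter at only 0.356 ± 0.231 CPM. Htr2b had 2, 5 and 11 counts in the retinas and was listed at 0 in the striata, at least 2.04-fold higher. Ionotropic glutamate receptors had 14 of 18 higher in the striatum and 2 in the retina. Gria1, an AMPA receptor subunit, was at 50.8 ± 1.26 against 515 ± 17.9 CPM. Grin2b, of NMDA receptors, was at 36.8 ± 0.902 against 560.2 ± 82.5 CPM. Grik1, the kainate receptor of OFF bipolar cells, was at 123, 124 and 136 CPM in the retinal libraries and 7.21, 9.26 and 10.6 CPM in the striatal ones (log2 difference 3.82, SE 0.11, adjusted p = 1.51e-10). Gria4 was not called, at 114 ± 2.56 against 114 ± 5.89 CPM (95% interval of the log2 difference −0.15 to 0.14). Among 8 metabotropic receptors, Grm6 and Grm8 were higher in the retina, Grm8 at 35.8 ± 2.04 against 9.45 ± 0.481 CPM, and 5 were higher in the striatum, among them Grm5 at 38.6 ± 2.29 against 431 ± 42.4 CPM.

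Inhibitory receptors separated by type. Of 24 GABA and glycine receptor genes, 6 were higher in the retina and 16 in the striatum (17 without wt striatum replicate 2). Subunits of the slow GABA receptors on bipolar cells were retinal: Gabrr1 and Gabrr3 were listed at 0 in the striata and at 91.3 ± 3.46 and 53.6 ± 3.29 CPM in the retinas, and Gabrr2 was at 59.4 ± 2.43 against 0.493 ± 0.257 CPM. Glra1, a glycine receptor subunit, was at 16.4 ± 0.407 against 0.755 ± 0.407 CPM. Slc6a5, a glycine transporter, was at 24.8 ± 1.14 against 0.1003 ± 0.127 CPM. Gabra4 and Gabrd, subunits of tonic GABA receptors, were higher in the striatum at 11.6 ± 1.24 against 197 ± 14.1 CPM for Gabra4 and 9.09 ± 0.810 against 64.7 ± 16.8 CPM for Gabrd. The enzymes that make GABA were higher there too, Gad1 at 199 ± 28.1 against 470.3 ± 46.9 CPM. Gad2 was at 57.3 ± 7.91 against 499.6 ± 16.8 CPM. Slc6a6, the taurine transporter, was higher in the retina at 1587, 1674 and 1662 CPM in the retinal libraries and 227, 219 and 241 CPM in the striatal ones (log2 difference 2.84, SE 0.074, adjusted p = 4.45e-11). Taurine is abundant in photoreceptors.

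Presynaptic genes divided by the kind of synapse. Photoreceptors and bipolar cells release glutamate continuously at ribbon synapses, and 13 of 17 genes of that list were called higher in the retina and 3 in the striatum (median 5.05). Ctbp2, whose gene also encodes the ribbon protein ribeye, was at 190.1, 192 and 186 CPM in the retinal libraries and 10.3, 16.9 and 12 CPM in the striatal ones (log2 difference 3.85, SE 0.15, adjusted p = 2.69e-08). Cacna1f, the calcium channel of ribbon terminals, was listed at 0 in the striata and at 445 ± 12.3 CPM in the retinas (at least 2446-fold), with its partners Cacna2d4 at 598 ± 6.66 against 2.94 ± 0.611 CPM. Cabp4 was at 226 ± 18.8 CPM against 0. Bsn, bassoon, and Pclo, piccolo, which conventional terminals share, were higher in the striatum at 119 ± 11.9 against 311 ± 76.6 CPM for Bsn and 289 ± 10.8 against 352 ± 35.2 CPM for Pclo. Of 23 genes of conventional vesicle release, 19 were higher in the striatum and 2 in the retina (median −1.17).

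Within the release machinery, the complexin, syntaxin and Sv2 families had paralogs that went opposite ways, while the synapsins shown were both higher in the striatum. Complexins, which clamp and prime fusion, were divided: Cplx3 was at 251 ± 11.8 against 5.93 ± 3.97 CPM and Cplx4 was listed at 0 in the striata and at 706 ± 29.5 CPM in the retinas, while Cplx1 and Cplx2 were higher in the striatum at 62.8 ± 4.89 against 358 ± 54.5 CPM for Cplx1 and 180.1 ± 3.28 against 1697 ± 352 CPM for Cplx2. Syntaxins showed the same order, with Stx3 at 943, 1058 and 1024 CPM in the retinal libraries and 29.0, 31.4 and 31.1 CPM in the striatal ones (log2 difference 5.05, SE 0.078, adjusted p = 1.65e-12). Stx1a was at 4.48, 4.68 and 4.62 CPM in the retinal libraries and 70.8, 38.7 and 94.5 CPM in the striatal ones (log2 difference −3.88, SE 0.45, adjusted p = 5.63e-04). Sv2b was higher in the retina at 736 ± 92.9 against 326 ± 102 CPM and Sv2c in the striatum at 37.6 ± 2.70 against 179 ± 16.4 CPM. Synapsins, which tether vesicles and are missing from ribbon terminals, were higher in the striatum, Syn1 at 49.0 ± 1.43 against 281 ± 31.9 CPM. Syn2 was at 19.9, 20.7 and 22.7 CPM in the retinas and 319, 281 and 300 CPM in the striata.

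Genes of the postsynaptic density of spines were higher in the striatum in 20 of 22 and in the retina in 1 (median −2.39). Camk2a, the calcium and calmodulin-dependent kinase, was at 26.0, 26.7 and 27.1 CPM in the retinal libraries and 2095, 1433 and 2232 CPM in the striatal ones (log2 difference −6.17, SE 0.16, adjusted p = 3.45e-09). Nrgn, neurogranin, which binds calmodulin in spines, was at 3.71, 2.94 and 4.14 CPM in the retinal libraries and 561, 401 and 633 CPM in the striatal ones (log2 difference −7.19, SE 0.24, adjusted p = 2.95e-08). Shank3, a scaffold, was at 15.96 ± 1.34 against 250.3 ± 34.3 CPM. Homer proteins were divided, Homer1 at 58.0 ± 4.26 against 306 ± 60.8 CPM. Homer3 was at 18.8 ± 1.98 against 5.49 ± 0.363 CPM. Dlg4 (PSD-95), which photoreceptor terminals also hold, was not called at 694 ± 39.3 against 705 ± 72.8 CPM (95% interval of the log2 difference −0.22 to 0.17).

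Ion channel genes were more often higher in the striatum. Of 62 potassium and HCN channel genes, 42 were higher in the striatum (43 without wt striatum replicate 2) and 16 in the retina (median −1.41). Of 32 sodium and calcium channel genes, 25 were higher in the striatum and 6 in the retina (median −1.64). Kcnv2, the modifier subunit of the photoreceptor potassium current, was listed at 0 in the striata and at 759, 807 and 764 CPM in the retinas (at least 4263-fold), and Kcnj14 was at 486 ± 24.4 against 2.32 ± 0.476 CPM. Kcnj4, the inward rectifier of medium spiny neurons, was at 0.384, 0.140 and 0.107 CPM in the retinal libraries and 136, 79.8 and 114 CPM in the striatal ones (log2 difference −9.01, SE 0.95, adjusted p = 1.10e-06). Kcnh3 was listed at 0 in the retinas and at 72.6, 45.3 and 75.7 CPM in the striata (at least 308-fold). Hcn2, a pacemaker channel, was at 17.6 ± 1.74 against 116 ± 2.28 CPM. Kcnd2, of the A-type current, was at 13.2 ± 0.642 against 206 ± 21.7 CPM. Among calcium channels Cacna1e, of the R-type current, was at 18.4 ± 0.860 against 448 ± 23.0 CPM, and Cacnb2, an accessory subunit, was higher in the retina at 300.2 ± 26.2 against 76.0 ± 6.47 CPM.

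Calcium-binding proteins had 7 of 25 members higher in the retina and 14 in the striatum. Cabp5, of bipolar cells, was at 96.8 ± 6.75 CPM in the retinas and listed at 0 in the striata, and Hpca, hippocalcin, was at 44.8, 47.2 and 43.5 CPM in the retinal libraries and 859, 656 and 709 CPM in the striatal ones (log2 difference −4.04, SE 0.10, adjusted p = 4.78e-11). Pcp4, which binds calmodulin, was at 93.9 ± 3.22 against 361 ± 65.8 CPM. Neuropeptides were higher in the striatum in 12 of 18 and in the retina in 3 (2 without wt striatum replicate 2). Tac1, the precursor of substance P, was at 9.47, 9.58 and 11.4 CPM in the retinal libraries and 132, 104 and 102 CPM in the striatal ones (log2 difference −3.47, SE 0.13, adjusted p = 1.41e-09). Pdyn, prodynorphin, was at 8.76, 9.65 and 8.70 CPM in the retinal libraries and 93.7, 57.0 and 73.7 CPM in the striatal ones (log2 difference −3.05, SE 0.20, adjusted p = 2.01e-06). Both are products of the direct pathway. Cartpt was higher in the retina at 25.3 ± 0.571 against 4.38 ± 2.06 CPM, as was Tac2 at 6.10 ± 0.833 against 1.80 ± 0.257 CPM, and Vip was not called at 10.3 ± 0.500 against 8.28 ± 5.87 CPM. Sodium pump subunits, which restore ion gradients, were divided too: Atp1b2 was higher in the retina at 1008 ± 62.3 against 386 ± 23.6 CPM, and Atp1b1 was higher in the striatum at 320.4 ± 8.83 against 1266 ± 95.9 CPM.

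**Figure D4:**
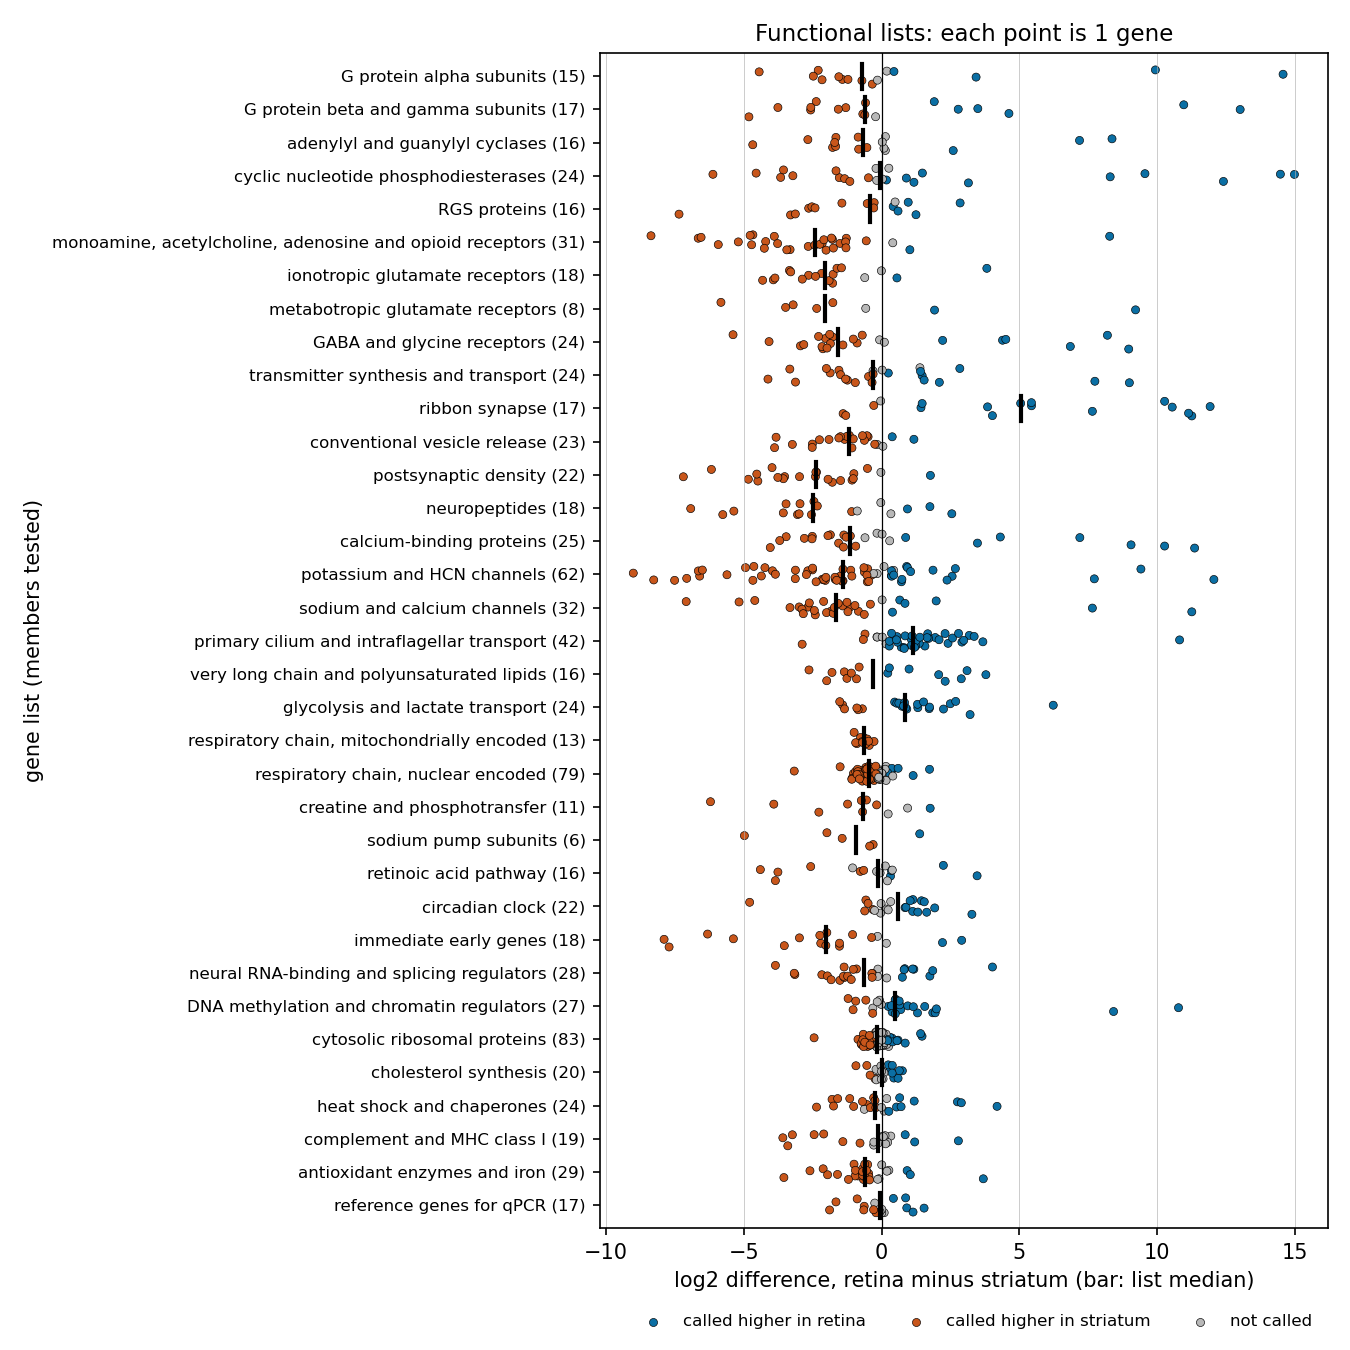
Log2 difference between retina and striatum (horizontal axis, positive where the retina was higher) of every measured gene of 35 functional lists (vertical axis, number of genes in brackets), with a point per gene coloured by its call and a bar at the list median, genes listed at 0 in one tissue drawn at their bound. Ribbon synapse and cilium genes lie mainly to the right of 0, and postsynaptic density genes and receptors for modulators mainly to the left.

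The outer segment is a modified primary cilium, and of 42 genes of cilia and intraflagellar transport, 35 were higher in the retina and 3 in the striatum (median 1.15). The sizes were modest for most. Rpgrip1, which anchors a regulator in the connecting cilium of photoreceptors, was at 1708, 1738 and 1593 CPM in the retinal libraries and 1.09, 1.02 and 0.647 CPM in the striatal ones (log2 difference 10.81, SE 0.19, adjusted p = 3.28e-13). Cep290, a gatekeeper of the cilium, was at 375 ± 7.93 against 36.5 ± 1.52 CPM and Bbs7, of the BBSome transport complex, at 281 ± 6.38 against 21.9 ± 1.87 CPM. Ift88, of intraflagellar transport, was at 51.1 ± 1.96 against 21.7 ± 1.03 CPM. The 3 members higher in the striatum were Kif17, Kif3a and Ift57, of which the first and second are kinesin motors that dendrites and axons also use. Kif17 was at 4.66 ± 0.340 against 34.4 ± 3.27 CPM, Kif3a at 97.7 ± 8.87 against 155 ± 6.46 CPM, and Ift57 at 27.1 ± 2.39 against 41.2 ± 2.97 CPM. Of 16 genes of very long chain and polyunsaturated lipids, 8 were higher in each tissue. Elovl4, which makes the very long chain fatty acids of photoreceptor membranes, was at 769, 789 and 790.1 CPM in the retinal libraries and 62.1, 53.2 and 55.1 CPM in the striatal ones (log2 difference 3.79, SE 0.077, adjusted p = 9.04e-12). Adipor1, needed there to keep docosahexaenoic acid, was at 485 ± 20.5 against 56.5 ± 2.02 CPM. Fads1, a desaturase, was higher in the striatum at 60.7 ± 2.13 against 211 ± 14.8 CPM.

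Energy genes differed in both branches. The retina is known for aerobic glycolysis, and of 24 genes of glycolysis and lactate transport, 18 were higher in the retina and 6 in the striatum (median 0.85). Hk2, the hexokinase of photoreceptors, was at 328, 302 and 374 CPM in the retinal libraries and 3.60, 5.26 and 4.41 CPM in the striatal ones (log2 difference 6.23, SE 0.14, adjusted p = 1.68e-11). Lactate dehydrogenase subunits were divided, with Ldha, which favours lactate production, at 702, 799.8 and 752 CPM in the retinal libraries and 174, 143 and 157 CPM in the striatal ones (log2 difference 2.25, SE 0.088, adjusted p = 1.02e-09). Ldhb was at 118, 115 and 115 CPM in the retinal libraries and 339, 314 and 341 CPM in the striatal ones (log2 difference −1.52, SE 0.066, adjusted p = 1.99e-09). The lactate carrier Slc16a1 was higher in the retina at 267 ± 8.61 against 47.4 ± 5.47 CPM, as was Slc16a3 at 18.3 ± 1.23 against 1.97 ± 0.129 CPM. The neuronal carrier Slc16a7 was higher in the striatum at 24.4 ± 2.08 against 62.1 ± 7.89 CPM. Pfkm, a phosphofructokinase subunit, and Slc2a3, the neuronal glucose transporter, were higher in the striatum at 94.6 ± 13.4 against 252 ± 22.5 CPM for Pfkm and 70.4 ± 4.21 against 131 ± 12.8 CPM for Slc2a3.

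Respiratory chain genes were higher in the striatum. All 13 mitochondrially encoded ones were called (13 of 13, median −0.64), and they held 7.61%, 7.90% and 8.18% of the counts in the retinal libraries and 12.7%, 12.9% and 11.4% in the striatal ones, without overlap (two-sided exact permutation p = 0.1, the smallest possible). mt-Co1 was at 20419, 22017 and 21997 CPM in the retinal libraries and 38598, 37277 and 33603 CPM in the striatal ones (log2 difference −0.76, SE 0.092, adjusted p = 1.38e-05). The complex I subunit mt-Nd4 was at 7655 ± 318 against 15249.5 ± 1093 CPM. Of 79 nuclear encoded genes, 54 were higher in the striatum, 6 in the retina and 19 were not called (median −0.44). Without wt striatum replicate 2 the striatal and retinal counts were 52 and 7. Cox6a1, of cytochrome oxidase, was at 29.9 ± 3.38 against 84.7 ± 4.25 CPM, and Ndufv3, of complex I, was higher in the retina at 78.2 ± 2.65 against 35.3 ± 2.42 CPM. Enzymes that protect from oxidants and handle iron leaned the same way, with 21 of 29 higher in the striatum (20 without wt striatum replicate 2) and 3 in the retina. The latter were Gpx4, which protects membrane lipids, at 215 ± 17.2 against 113 ± 5.52 CPM, the transferrin receptor Tfrc at 270.2 ± 14.3 against 131 ± 19.9 CPM, and ceruloplasmin (Cp) at 248, 244 and 240.3 CPM in the retinal libraries and 20.9, 19.8 and 15.8 CPM in the striatal ones (log2 difference 3.69, SE 0.093, adjusted p = 3.30e-11). Ferritin heavy chain (Fth1) was higher in the striatum at 289 ± 17.4 against 1123 ± 37.8 CPM. Among creatine and phosphotransfer genes, 8 of 11 were higher in the striatum, including Gatm, which makes the precursor of creatine, at 1.96 ± 0.257 against 146 ± 11.6 CPM.

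Clock genes were higher in the retina in 11 of 22 and in the striatum in 5 (6 without wt striatum replicate 2). The activators were divided: Arntl (Bmal1) was at 108, 104 and 107 CPM in the retinal libraries and 42.6, 37.6 and 37.0 CPM in the striatal ones (log2 difference 1.45, SE 0.072, adjusted p = 6.12e-09). Npas2, the partner that can replace Clock in the forebrain, was at 2.49, 1.47 and 1.77 CPM in the retinal libraries and 62.1, 38.9 and 58.3 CPM in the striatal ones (log2 difference −4.79, SE 0.30, adjusted p = 6.83e-07). Per3 was at 127 ± 7.84 against 40.9 ± 4.60 CPM. Rora was at 444 ± 41.8 against 117 ± 13.98 CPM. Clock genes cycle over the day, and the hour of dissection was not stated. Immediate early genes, which activity induces, were higher in the striatum in 14 of 18 and in the retina in 2 (median −2.003). Egr1 was at 13.2, 20.6 and 14.2 CPM in the retinal libraries and 188, 168 and 194 CPM in the striatal ones (log2 difference −3.53, SE 0.15, adjusted p = 5.28e-08), Egr3 at 0.712 ± 0.241 against 148 ± 30.2 CPM. Arc was at 0.751 ± 0.270 against 61.04 ± 15.9 CPM, whereas Fos was not called at 10.3 ± 2.77 against 9.12 ± 1.70 CPM. Btg2 and Ier2 were higher in the retina, at 82.8 ± 5.34 against 11.04 ± 1.31 CPM for Btg2 and 7.14 ± 0.690 against 1.54 ± 0.641 CPM for Ier2.

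Regulators of RNA and chromatin are read beside the 37.8% of all genes called higher in the retina and the 38.5% called higher in the striatum. Of 28 neural RNA-binding and splicing regulators, 8 (28.6%) were higher in the retina and 17 (60.7%) in the striatum (18 without wt striatum replicate 2). Msi1, Musashi 1, which directs photoreceptor splicing, was at 344, 345 and 341 CPM in the retinal libraries and 20.2, 22.3 and 20.8 CPM in the striatal ones (log2 difference 4.02, SE 0.069, adjusted p = 2.26e-12). Msi2 was at 619 ± 21.6 against 184 ± 2.94 CPM. Srrm4, which includes neural microexons, was at 107 ± 9.06 against 29.4 ± 3.55 CPM. Rbfox3 (NeuN), a splicing factor used as a marker of neurons that is absent from photoreceptors, was at 15.6, 16.01 and 13.8 CPM in the retinal libraries and 237, 179 and 237 CPM in the striatal ones (log2 difference −3.85, SE 0.12, adjusted p = 1.21e-09). Rbfox1 was at 38.8 ± 2.50 against 344 ± 54.7 CPM. Celf5 was at 28.9 ± 1.29 against 259 ± 15.0 CPM. Chromatin genes were higher in the retina in 18 of 27 (66.7%) and in the striatum in 5 (18.5%, median 0.50). Samd7, which silences genes in rods, was at 172 ± 4.90 against 0.0936 ± 0.0389 CPM and the related Samd11 at 395 ± 27.3 against 1.17 ± 0.522 CPM. The methylcytosine oxidase Tet3 was at 245 ± 8.92 against 67.6 ± 6.87 CPM. The lamin genes of the nuclear envelope were divided, Lmnb1 at 36.4 ± 1.12 against 9.13 ± 0.792 CPM and Lmna at 6.26 ± 0.736 against 14.5 ± 2.12 CPM.

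Of 83 cytosolic ribosomal protein genes, 10 were higher in the retina, 29 in the striatum and 44 were not called (median −0.15). Without wt striatum replicate 2 the counts were 14 and 27. Cholesterol synthesis had 8 of 20 (40%) higher in the retina, near the share of all genes, and 4 (20%) in the striatum (median 0.028). Its counts without wt striatum replicate 2 were 7 and 6. Heat shock genes were higher in the retina in 8 of 24 (9 without wt striatum replicate 2) and in the striatum in 12, shares of 33.3% and 50%. The HSP90 paralogs were divided, with Hsp90aa1 at 2999 ± 402 against 1319 ± 28.8 CPM. Hsp90ab1 was at 361 ± 41.2 against 1255 ± 54.6 CPM, and Hsph1 was at 63.2 ± 1.28 against 324 ± 10.6 CPM. Genes of the retinoic acid pathway were divided, with 4 of 16 (25%) higher in the retina and 6 (37.5%) in the striatum. Among them, the receptor Rara was at 21.8 ± 1.71 against 4.64 ± 0.863 CPM and Rarb at 14.4 ± 1.20 against 85.4 ± 13.4 CPM.

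Of 17 genes that serve as references in quantitative PCR, 5 were called higher in the retina and 7 in the striatum (8 without wt striatum replicate 2). These shares, 29.4% and 41.2%, stand beside 37.8% and 38.5% of all genes, so the list was not called more often than genes in general. Actb, beta-actin, was at 216, 241 and 266 CPM in the retinal libraries and 947, 847 and 878 CPM in the striatal ones (log2 difference −1.88, SE 0.089, adjusted p = 4.45e-09). Ywhaz was at 422 ± 29.3 against 1327 ± 163 CPM. Gapdh, a glycolytic enzyme, was at 2695 ± 129 against 1429 ± 52.6 CPM and Tbp at 74.6 ± 2.87 against 33.8 ± 1.73 CPM. Polr2a was at 250.1 ± 7.62 against 85.6 ± 24.6 CPM. Eef2, elongation factor 2, was not called, at 909.8, 1026 and 1013 CPM in the retinal libraries and 915, 933 and 912 CPM in the striatal ones (log2 difference 0.096, SE 0.076, adjusted p = 0.269), with a 95% interval of −0.071 to 0.26. Rplp0, of the ribosomal stalk, was not called either, at 115 ± 7.64 against 114 ± 2.98 CPM, with an interval of −0.15 to 0.16.

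Genes listed at 0 in one tissue were numerous, 535 at 0 in the 3 striata and 646 at 0 in the 3 retinas. They passed the filter on counts of the other tissue alone. Their calls, and the counts of libraries without overlap, took these zeros as listed, although a listed 0 can stand for up to 10 counts. Grin3b, for example, was called higher in the retina on 5, 4 and 4 counts against 0, with a bound of 1.47-fold. Those at 0 in the striata with the highest retinal CPM were Cnga1, Crx, Tulp1, Kcnv2, the complexin Cplx4 (at least 3879-fold) and Guca1a. Those at 0 in the retinas with the highest striatal CPM were Mobp, then Acsbg1, an acyl-CoA synthetase of astrocytes, at 109, 107 and 113 CPM in the striata (at least 533-fold), Ankrd63 at 101 ± 15.8 CPM, Gjc3, a connexin of oligodendrocytes, at 93.1 ± 3.77 CPM, Ntsr2, a neurotensin receptor of astrocytes, at 68.8 ± 4.13 CPM, and Kcnh3.

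The length of genes on the chromosome, which the comparison did not use, moved with the direction of the difference among long genes. Of 224 tested protein-coding genes that span over 500 kb, 67.9% were called higher in the striatum and 17.4% in the retina, with a median log2 difference of −1.07. For 748 genes of 200 to 500 kb the shares were 56.7% and 30.3%, and for 4310 genes of 20 to 50 kb they were 35.9% and 41.8%. Among 3874 genes under 10 kb they were 38% and 32.6%. Among protein-coding genes, the median span was 24.6 kb for all tested. It was 21.4 kb where the retina was at least 8-fold higher and 27.4 kb where the striatum was. What moved with gene span was not tested further.

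**Figure D5:**
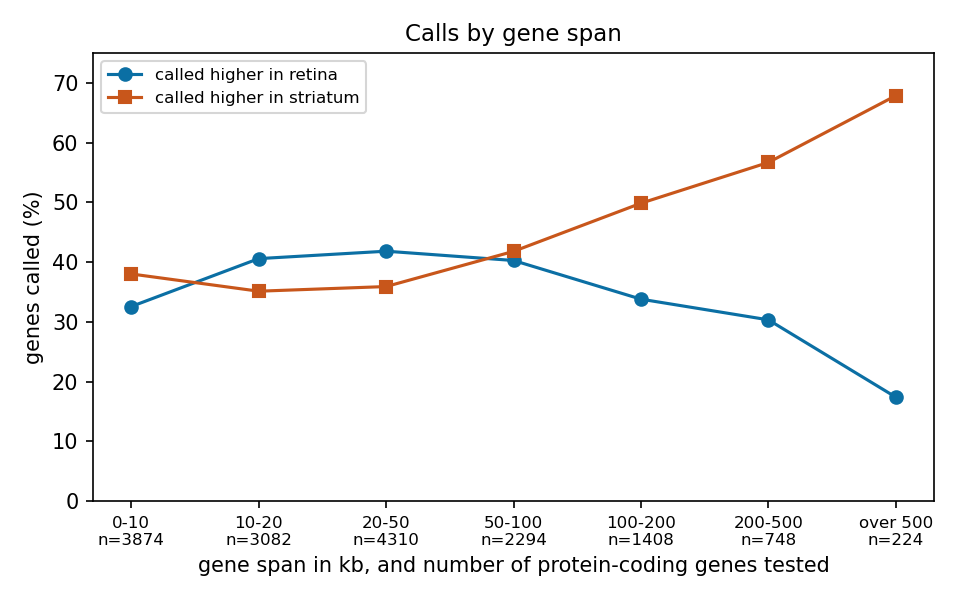
Share of tested protein-coding genes called higher in the retina (circles) or in the striatum (squares), in percent (vertical axis), by the span of the gene in kb (horizontal axis, with the number of genes per class). Above 100 kb the share higher in the striatum rises to 67.9% and the share higher in the retina is 17.4% in the longest class.

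The contrast was also read in the R6/1 libraries, which share no library with the wt comparison but come from the other genotype. Of the 607 genes at least 8-fold higher in wt retinas, 604 were tested there, and 590 (97.7%) were called higher in R6/1 retinas and 0 lower. Of the 879 genes at least 8-fold higher in wt striata, 878 were tested, and 857 (97.6%) were called in the same direction and 0 in the other (edgeR, both). Over all genes called in wt, 5416 of 6236 tested (86.9%) were called higher in the R6/1 retina and 5534 of 6377 (86.8%) higher in the R6/1 striatum, with 22 genes in each direction called the opposite way.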

How the data were processed

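Poly(A) RNA of retina and striatum was sequenced from stranded mRNA libraries. The authors deposited estimated counts per gene and library, made with CASAVA, Trimmomatic and Salmon against GRCm38/mm10 per the submitters' processing notes. Versions, and how transcripts were summed or rounded, are not given in the sources used here. The counts were whole and used as deposited. Symbols came from GENCODE M21, and 49 of 17579 identifiers had none.

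Samples were grouped by the labels. The 3 wt retinas and 3 wt striata were compared in edgeR 4.0.16 (R 4.3.3) with TMM scaling and a robust quasi-likelihood F-test without a replicate block. Genes needed 10 counts over the 6 libraries, and p-values were adjusted by Benjamini-Hochberg over 16864 genes at a threshold of 0.05. SEs came from the fit. The p-values measure the spread between pools. Medians of lists are descriptions and were given no test. Total counts were 14070445 to 20159277 per library, which limits values resting on few counts. In counts simulated for wt retina against wt striatum (16864 genes), 80% of 2-fold and 88% of the 4-fold changes put in were called, with 8 unchanged genes. There most genes were given the same mean in both tissues, whereas 76.3% were called in the data. The simulation therefore does not measure how many real differences were missed or wrongly called.

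The members and gene lists were chosen with earlier results of these data known. Genes named were marker genes set for each list, the 4 of each list with the smallest p and up to 4 called against the list's median, the 15 with the highest mean CPM per tissue among those called and at least 8-fold different, the 6 highest per tissue among those at 0 in the other, and the 10 with the smallest p per direction. Some genes that this rule picks are not reported here. Cngb1 was named for its promoter after its values were seen. The fit was repeated with limma-voom (limma 3.58.1) and DESeq2 1.42.0, other scalings, filters and thresholds, a replicate block, all 12 libraries in 1 fit, the R6/1 libraries and leaving out each library. Tables and figures were made with Python 3.11.15, numpy 2.4.6, pandas 2.3.3, scipy 1.17.1 and matplotlib 3.10.9.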

Additional observations from a re-analysis of the deposited data

How the results depend on the processing

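The counts of 6379 genes higher in the wt retina and 6494 higher in the wt striatum changed by less than 1.5 times under every alternative run except glmTreat, a test against a log2 difference of 1, which called 2531 and 3313. The counts were 5996 and 6145 with DESeq2, 6505 and 6302 with library totals, 5970 and 5976 with filterByExpr, and 6136 and 6226 in the R6/1 libraries. Leaving out each library gave 5842 to 6453 genes higher in the retina and 6121 to 6284 higher in the striatum. With the replicate number as a block they were 6393 and 6457. Nothing in the sources used here ties a retinal pool to a striatal pool of the same number, and deviations of same-numbered retinal and striatal libraries correlated at −0.028, 0.025 and −0.00031 over 10355 genes, and all 9 pairs lay between −0.05 and 0.058.

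Of the results on named genes under alternatives, 5079 kept their direction and side of the threshold, 73 lost the call, 14 gained one and 8 changed sign. All 8 changes of sign were in the R6/1 libraries, with log2 differences of 0.075 for C4b, 0.66 for Chat, 0.14 for Ckb, 0.86 for Crybb1, 0.32 for Ift57, 0.071 for Msmo1, −0.53 for Rgs3 and −0.50 for Ttr. The cause was not tested. Medians of lists moved by more than the spread between libraries in 52 of 720 cases. In the R6/1 libraries, 33 of the 60 medians moved and 27 did not. With 3 pools per tissue, genes with few counts limit what could be called, and a gene listed at 0 in one tissue has a bound in place of a fold.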
